A study of Mus musculus with 9 samples.

Results

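The genes described here are the xenobiotic cytochromes P450 of families 1 to 3 in mouse liver. They were all symbols of the deposited gene table that begin with Cyp, a family digit from 1 to 3, 1 subfamily letter and a number, with Cyp2c70, which is known for its part in bile acid synthesis, left out. This rule took 55 of the 19329 symbols, in 15 subfamilies, and used no measured value. The genes were, however, chosen with earlier results of these data known, so the shares of them called below are not independent of these data. Their transcripts were counted by RNA sequencing of poly-A selected RNA in the livers of 9 C57BL/6J mice, all killed at 11 weeks of age. The control mice stayed on standard chow (Chow, 5 mice), and the others were given a high-sucrose diet from 8 weeks of age for 3 weeks (HSD, 4 mice). In the study the mice served as a diet model of fatty liver, each liver was a separate mouse, and the sources used here do not give the sex of the animals.

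Cytochromes P450 of these families are heme enzymes of the endoplasmic reticulum that add oxygen to drugs, plant compounds, steroids and fatty acids, with electrons passed on by cytochrome P450 reductase (Por) and, for some reactions, cytochrome b5. Hepatocytes express most of them, many in the zone around the central vein. The receptors CAR (Nr1i3), PXR (Nr1i2) and AHR (Ahr) switch on different members when they meet their ligands, CAR acting on Cyp2b10, PXR on Cyp3a11 and AHR on the Cyp1 genes.

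Each library held between 12769668 and 25913869 estimated counts, of which the P450 genes took between 1.41 and 1.88%. The 10 hepatocyte markers examined were abundant in every liver, with summed levels of 88467 to 144361 CPM (counts scaled to a common library size, normalized with trimmed mean of M-values factors as for all such values below) in chow and 114127 to 143363 in HSD. The 5 neutrophil markers summed to at most 3.10 CPM. The 9 Kupffer cell markers summed to 199.6 to 457 CPM in chow and 126 to 253 CPM in HSD, the highest liver being Chow 1 and the lowest HSD 4. The 7 stellate cell markers summed to 194 to 243 and 236 to 311 CPM. Of both lists 0 passed edgeR. At an unadjusted p under 0.05 by edgeR, 5 Kupffer markers were lower and 3 stellate markers higher, shares not counted over all genes. DESeq2 called 0 and 2, and among all 16452 genes it called 632 higher. The part of these cells in the results was not tested. Y-linked transcripts were present in all 9 livers at 70.7 to 107 CPM. The liver Chow 1 stood apart from all others in its acute phase transcripts: serum amyloid Saa2 was at 10112 CPM there and at no more than 39.5 CPM elsewhere, and haptoglobin (Hp) was at 19791 CPM against at most 3750. Chow 1 was the lowest of the chow livers for 18 of the 41 P450 genes tested, a share that was not counted over all genes. The Y-linked sum was also lowest there among the chow livers. Chow 1 and Chow 3 also had less of the clock output gene Dbp (43.3 and 27.4 CPM) than the other chow livers (114 to 129 CPM), while the HSD livers ranged from 35.1 to 96.2 CPM. Bulk liver RNA cannot tell fewer cells of a type from less RNA per cell.

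The level of the P450 genes spanned the whole range from undetected to among the abundant liver transcripts. In TPM (transcript numbers scaled to a fixed total, which corrects for length and so allows genes to be compared), 20 of the 55 had a mean of at least 100 over the 9 livers and 20 had a mean under 1. The 8 most abundant carried 77.7% of all P450 TPM. Cyp2e1, which oxidises ethanol and acetaminophen, alone carried 31.1%, at 3928 ± 610 TPM in chow and 3842 ± 695 TPM in HSD (mean ± SD, here and below over 5 chow and 4 HSD livers). Cyp2d9, a male-specific steroid hydroxylase of mouse liver, carried 10.1%, Cyp2c29 9.68% and Cyp2f2 7.96%. At the other end, 5 members (Cyp2b13, Cyp2b23, Cyp2j7, Cyp2j12 and Cyp2t4) had no count in any liver. If counts were independent of one another, a count of 0 would allow up to 3 counts in a library. That limit was 0.112 to 0.234 CPM depending on library depth. Of the whole-number values above 0, however, 99.1% were even, so counts may not be independent and the true limit may be higher. Those 5 and 9 others with at most 10 counts in any liver fell below the filter on low counts and were not tested.

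**Figure D1:**
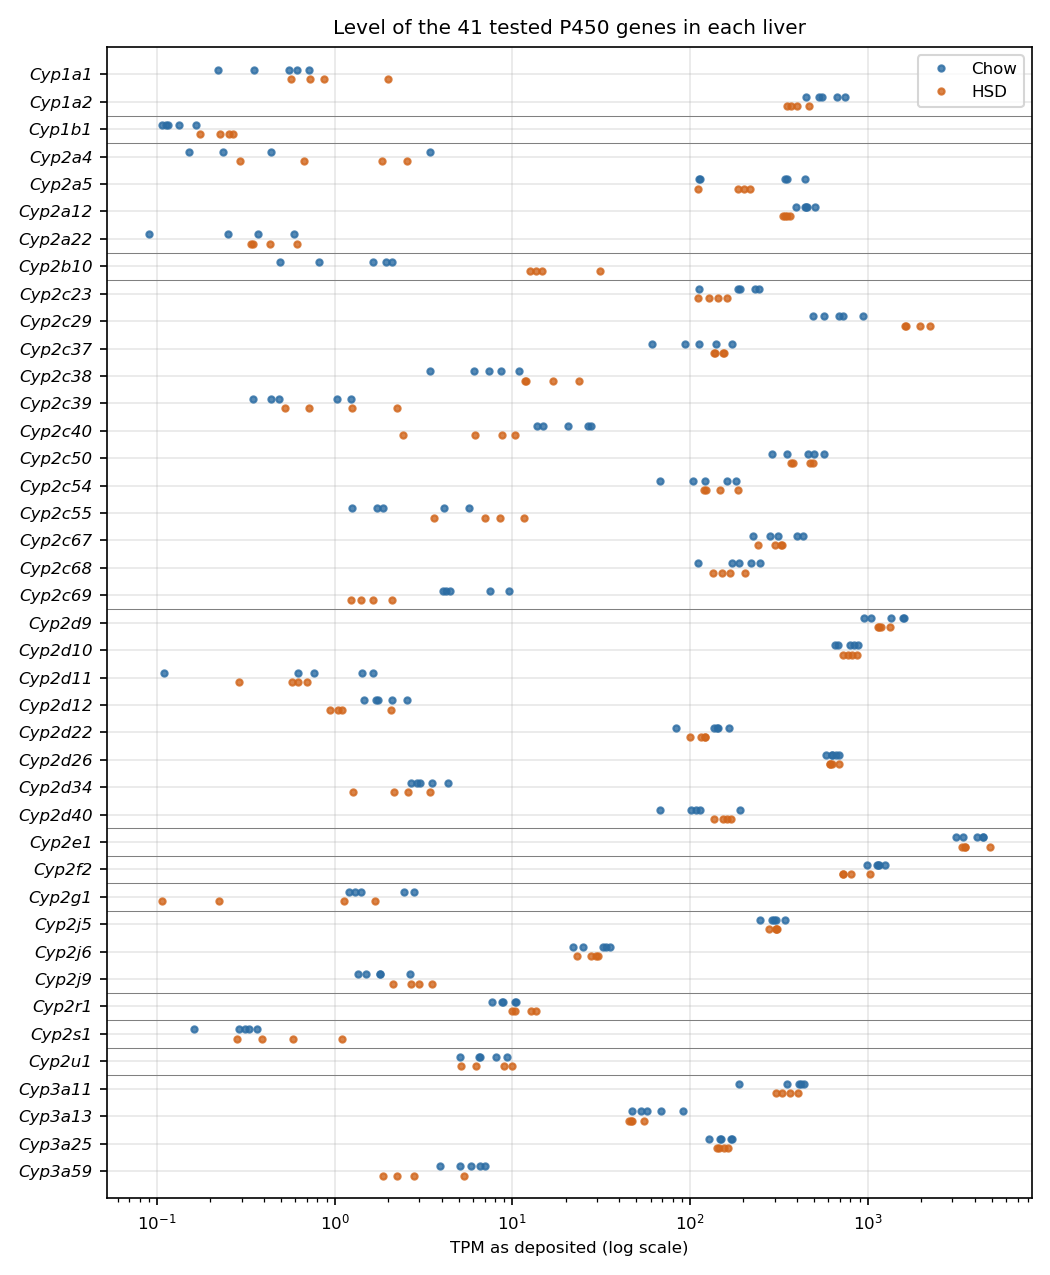
Level of the 41 tested P450 genes in each liver, in TPM on a log axis, with chow livers in blue and HSD livers in orange and grey lines between subfamilies. Cyp2a4 and Cyp2a22 each had 1 liver (Chow 3) at 0, which a log axis cannot show. Cyp2e1 led at 3135 to 4880 TPM, and Cyp2b10 is the gene whose diets lie farthest apart on this axis.

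Summed over all 55 genes, the P450 transcripts came to 12390 ± 1854 TPM in chow and 12655 ± 689 TPM in HSD, and on the CPM scale to 17164 ± 1498 and 15587 ± 1052. The diets overlapped on both scales. Without Cyp2c29 the CPM sum was 16253 ± 1418 in chow and 13337 ± 1164 in HSD, also overlapping.

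The comparison of HSD with chow asked which of these genes the sugar diet changed. Of the 41 tested, 10 (24.4%) passed the edgeR quasi-likelihood test at an adjusted p under 0.05, where 6.67% of the 12091 genes tested did. On HSD 3 were higher, Cyp2b10, Cyp2c29 and Cyp2c38, or 7.32% of the tested members against a background of 3.44%. The 7 lower were Cyp2c69, Cyp2c40, Cyp3a59, Cyp1a2, Cyp2c23, Cyp2f2 and Cyp2a12, or 17.1% against 3.23%. The other 31 did not pass. By edgeR 18 of the 41, the 10 past the test included, had an unadjusted p under 0.05, a share that was not counted over all genes. The median log2 fold change of the tested members was -0.19, with 25 below 0 and 16 above, and that of all genes was -0.00392. The HSD livers lay wholly above or below the chow livers for 9 members (22.0%, against 11.3% of all genes tested), 3 higher (background 5.84%) and 6 lower (background 5.51%), and 8 of these 9 were among the 10 past the test.

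**Figure D2:**
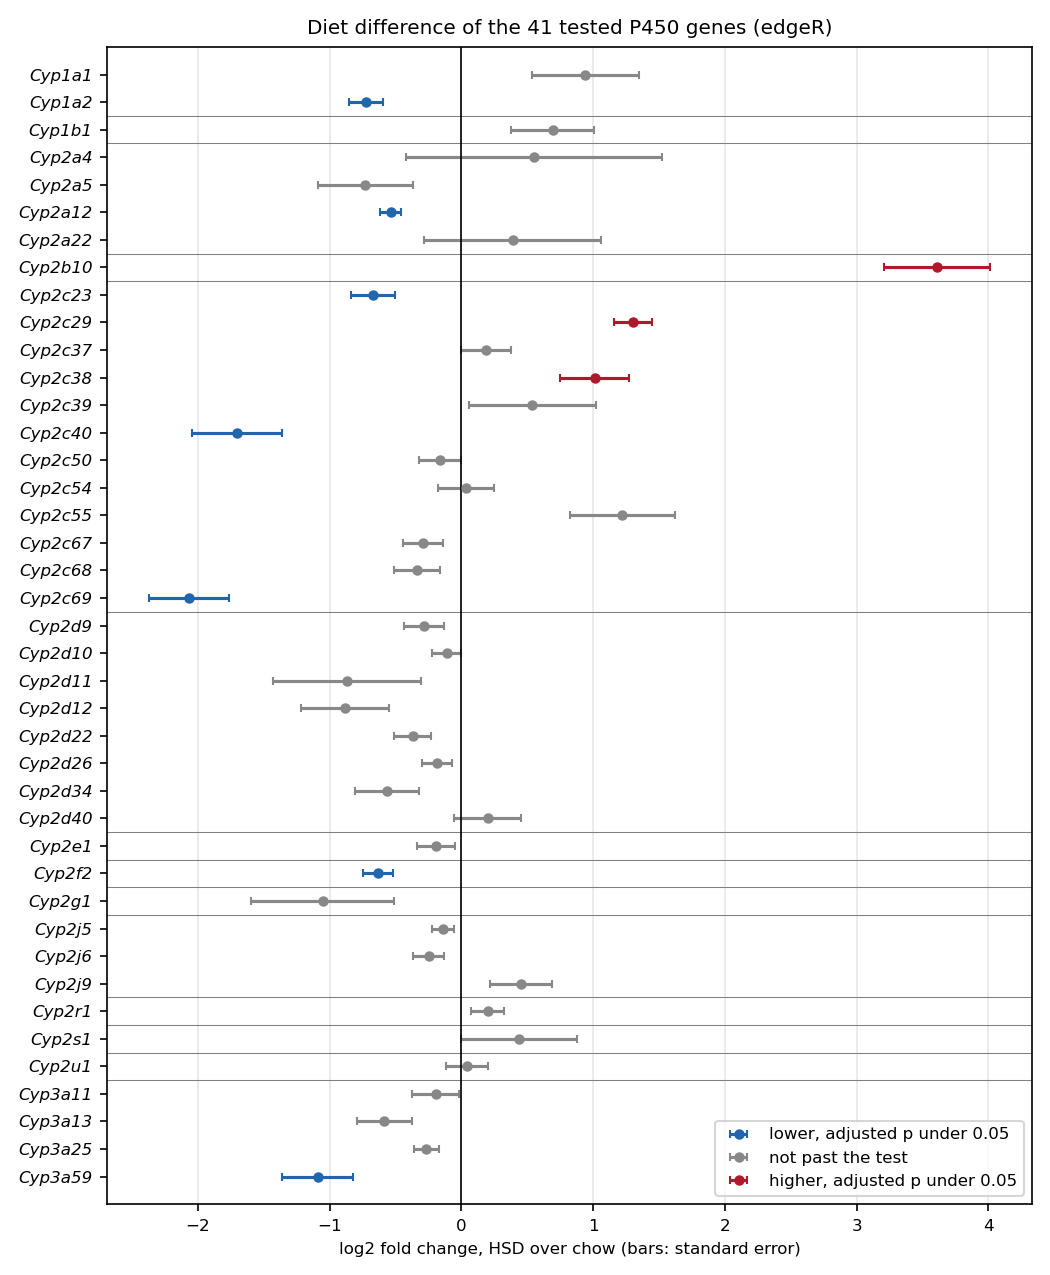
The log2 fold change of HSD over chow for the 41 tested P450 genes, with standard errors from edgeR and grey lines between subfamilies. Red points (3) were higher and blue points (7) lower at an adjusted p under 0.05. The Cyp2c genes spread in both directions, from Cyp2c69 at -2.07 to Cyp2c29 at 1.31.

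Without Chow 1 all 10 passed again, and Cyp2d22 and Cyp2d40 joined them. Without Chow 1 and Chow 3 together 9 of the 10 passed, with Cyp2c38 lost and 4 others joining. Leaving out HSD 1 reduced the count from 10 to 6, the lost genes being Cyp2c40, Cyp3a59, Cyp2c38 and Cyp2c23. The library labels fall into 2 number series, and in the first alone, with 4 chow and 2 HSD livers, Cyp2b10 was the single member past the test. There the log2 fold changes of the 10 were 3.30 for Cyp2b10, 1.27 for Cyp2c29, 1.35 for Cyp2c38, -1.86 for Cyp2c69, -1.50 for Cyp2c40, -1.42 for Cyp3a59, -0.76 for Cyp1a2, -0.52 for Cyp2c23, -0.55 for Cyp2f2 and -0.56 for Cyp2a12, each in the direction seen with all 9 livers. With the label series as a term in the fit 9 of the 10 passed, all but Cyp2c23.

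Cyp2b10, the mouse gene most used as a readout of CAR, showed the largest change of the P450 genes. It stood at 0.388, 2.80, 1.155, 2.70 and 2.34 CPM in Chow 1 to 5 and at 18.9, 16.8, 40.3 and 17.7 CPM in HSD 1 to 4. Every HSD liver was above every chow liver, and HSD 3 was well above the other HSD livers. The log2 fold change was 3.61 ± 0.40 (SE) with an adjusted p of 0.000642 by edgeR. Without HSD 3 it was 3.22, and it passed under all 23 alternatives tried. Even in HSD its level of 18.0 ± 8.85 TPM was far below that of Cyp2c29. Of the other Cyp2b genes, Cyp2b13, which shares the most sequence with it among the members, was at 0 in all livers, and Cyp2b9 did not exceed 0.491 CPM.

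Cyp2c29, an arachidonic acid epoxygenase that CAR and PXR ligands also induce, was the abundant gene that rose. Its levels were 756, 913, 780, 1150 and 954 CPM in Chow 1 to 5 and 2334, 2005, 2672 and 1989 CPM in HSD 1 to 4. The groups were wide apart. By edgeR it rose with a log2 fold change of 1.31 ± 0.15 (SE), adjusted p = 0.000642 by edgeR, and in TPM it went from 681 ± 171 to 1872 ± 296. Cyp2c29 thereby passed Cyp2d9 in mean TPM on HSD (1205 ± 90.6 TPM) and was second only to Cyp2e1 among the P450 genes. Cyp2c38, a neighbouring enzyme that also acts on arachidonic acid, was at 8.99, 19.6, 14.2, 22.7 and 16.5 CPM in Chow 1 to 5 and at 34.1, 50.1, 24.0 and 24.6 CPM in HSD 1 to 4. Here the groups were only just apart, with HSD 3 near Chow 4. Its log2 fold change was 1.01 ± 0.26 (SE), adjusted p = 0.0390 by edgeR, a call that 11 of 23 alternatives did not keep. Cyp2c39, which shares the most 31-base sequences with Cyp2c38 (13.9% of those of Cyp2c38), had a log2 fold change of 0.54 and an adjusted p of 0.539 by edgeR, with levels of 0.468 to 1.54 CPM in chow and 0.634 to 2.80 CPM in HSD. The highest of these, HSD 2, carried the difference, and without it the log2 fold change was -0.02.

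**Figure D3:**
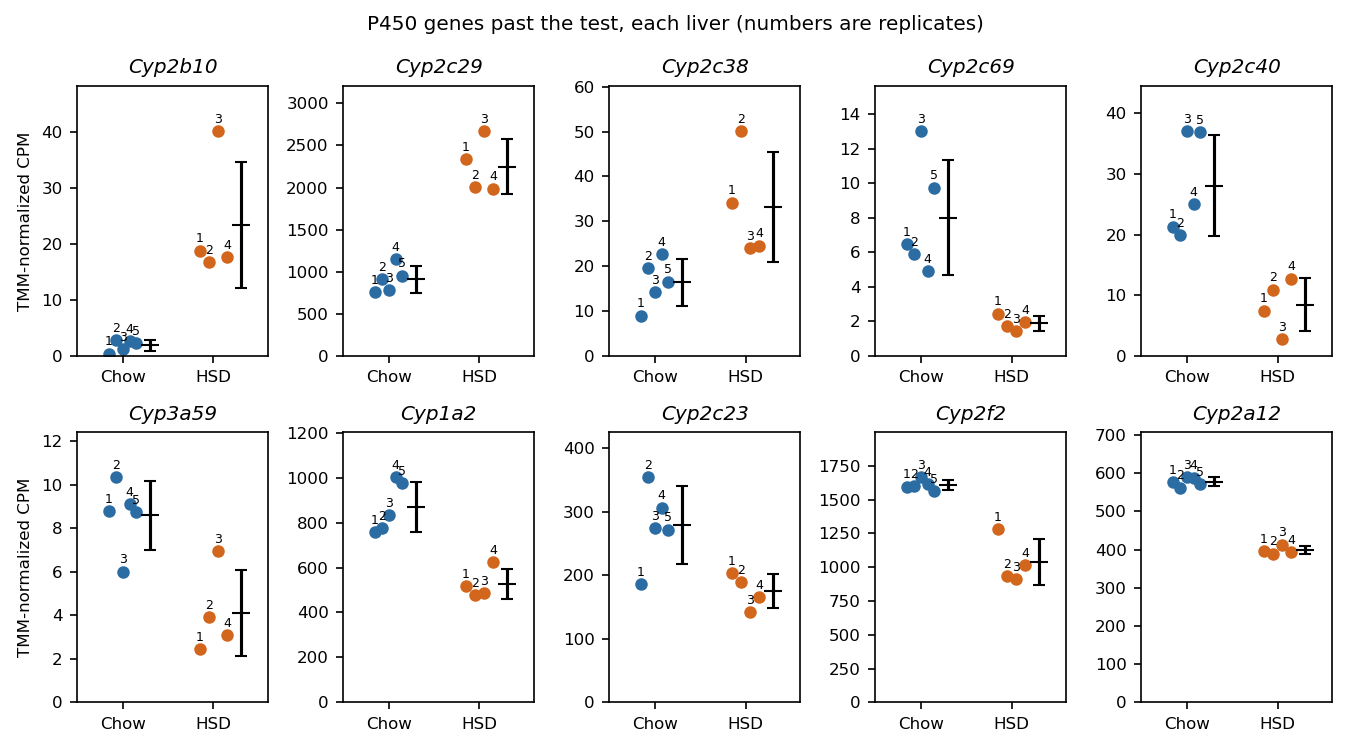
CPM in each liver for the 10 P450 genes past the test, on linear axes from 0, with replicate numbers beside the points and the mean and SD in black. Cyp2b10, Cyp2c29 and Cyp2c38 were higher on HSD and the others lower, and only Cyp3a59 and Cyp2c23 had overlapping diets.

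Promoters are printed for the 3 genes that rose and for the 2 that fell most, to show the start regions of the largest changes and how alike the Cyp2c copies are. Each is the 250 bases before the RefSeq start site on the gene's strand, GRCm38.p6, and capitals mark matches on either strand to the letters TATAAA (the core promoter box), CAAAGTCCA (an HNF4A-type site) or TTGCNNAA (a C/EBP-type site). The genes that were higher on HSD were Cyp2b10 at chr7:25897408-25897657 on the plus strand, Cyp2c29 at chr19:39286835-39287084 on the plus strand and Cyp2c38 at chr19:39463076-39463325 on the minus strand.
Cyp2b10: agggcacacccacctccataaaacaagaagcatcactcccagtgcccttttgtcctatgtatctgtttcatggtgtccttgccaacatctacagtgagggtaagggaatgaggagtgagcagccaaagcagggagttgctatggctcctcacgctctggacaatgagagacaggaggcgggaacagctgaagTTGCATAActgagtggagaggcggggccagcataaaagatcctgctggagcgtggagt
Cyp2c29: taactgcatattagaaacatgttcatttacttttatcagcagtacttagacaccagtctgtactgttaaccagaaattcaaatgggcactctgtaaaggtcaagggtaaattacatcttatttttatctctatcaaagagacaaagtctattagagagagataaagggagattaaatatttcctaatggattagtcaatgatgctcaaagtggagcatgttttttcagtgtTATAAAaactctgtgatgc
Cyp2c38: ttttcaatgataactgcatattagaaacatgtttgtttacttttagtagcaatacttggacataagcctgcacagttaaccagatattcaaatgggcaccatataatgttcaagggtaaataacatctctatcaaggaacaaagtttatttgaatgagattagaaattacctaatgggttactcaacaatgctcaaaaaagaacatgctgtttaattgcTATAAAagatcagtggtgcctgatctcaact
The genes that were lower were Cyp2c40 at chr19:39812815-39813064 and Cyp2c69 at chr19:39886770-39887019, both on the minus strand.
Cyp2c40: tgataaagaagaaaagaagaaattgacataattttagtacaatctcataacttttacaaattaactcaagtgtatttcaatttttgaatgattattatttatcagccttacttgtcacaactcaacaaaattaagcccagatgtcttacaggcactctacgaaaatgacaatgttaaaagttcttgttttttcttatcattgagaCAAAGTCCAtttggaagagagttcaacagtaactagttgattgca
Cyp2c69: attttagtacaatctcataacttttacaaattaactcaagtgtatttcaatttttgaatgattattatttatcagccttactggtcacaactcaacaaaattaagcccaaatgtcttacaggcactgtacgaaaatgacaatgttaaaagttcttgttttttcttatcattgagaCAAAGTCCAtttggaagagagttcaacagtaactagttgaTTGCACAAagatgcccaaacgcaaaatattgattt
Over windows of 300 bases, which add the first bases of the transcript, Cyp2c40 and Cyp2c69 aligned over 270 bases with 98.89% identity, and Cyp2c29 and Cyp2c38 over 273 bases with 82.05%. The letters CAAAGTCCA lie 45 bases before the annotated start of Cyp2c40 and 75 before that of Cyp2c69. Promoter sequence was found for 47 of the 55 members (50 promoters). CAAAGTCCA occurred in 14% of the member promoters and in 0.384% of all 32851 RefSeq promoters, the member genes being Cyp2c40, Cyp2c65, Cyp2c67, Cyp2c68, Cyp2c69, Cyp3a11 and Cyp3a16. TATAAA occurred in 44% against 12.4%, and TTGCNNAA in 26% against 9.56%. Searched in the same way on both strands, the nuclear receptor site letters AGGTCA occurred in 28% against 14.0%, the AHR core GCGTG in 16% against 28.2% and the D box TTATGTAA in 0% against 0.819%. Many of these promoters are copies of one another, so their counts are not independent, and a match describes letters only.

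Cyp2c69 and Cyp2c40 had the largest falls, and they are near-identical neighbours on chromosome 19 (GENCODE vM21, GRCm38). Cyp2c69 (chr19:39842814-39886799) was at 6.47, 5.90, 13.0, 4.91 and 9.75 CPM in Chow 1 to 5 and at 2.45, 1.72, 1.43 and 1.94 CPM in HSD 1 to 4. Cyp2c40 (chr19:39767071-39812814) was at 21.3, 19.97, 37.1, 25.04 and 36.9 CPM in Chow 1 to 5 and at 7.45, 10.9, 2.73 and 12.7 CPM in HSD 1 to 4. For both genes all HSD livers were below all chow livers. By edgeR the log2 fold changes were -2.07 ± 0.30 (SE, adjusted p = 0.00325) for Cyp2c69 and -1.70 ± 0.34 (SE, adjusted p = 0.0140) for Cyp2c40. Without HSD 1 the adjusted p of Cyp2c40 by edgeR was 0.0570.

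These estimates depend on how reads were divided between copies. Of the 31-base sequences in the transcripts of Cyp2c40, 72.6% also occur in other genes, and 64.9% of those of Cyp2c69 do. Their relatives Cyp2c67 and Cyp2c68, with 67.6 and 62.0%, were far more abundant, at 427 ± 80.6 and 241 ± 53.6 CPM in chow and 348 ± 51.5 and 191 ± 38.8 CPM in HSD, and did not pass the test (log2 fold changes -0.29 and -0.34). Summed, the 4 genes were at 529, 632, 694, 802 and 866 CPM in Chow 1 to 5 and at 525, 649, 435 and 589 CPM in HSD 1 to 4. The groups overlapped in this sum, with a ratio of HSD to chow of 0.780. Whether the 2 scarce copies fell as much as their own values say was not tested.

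**Figure D4:**
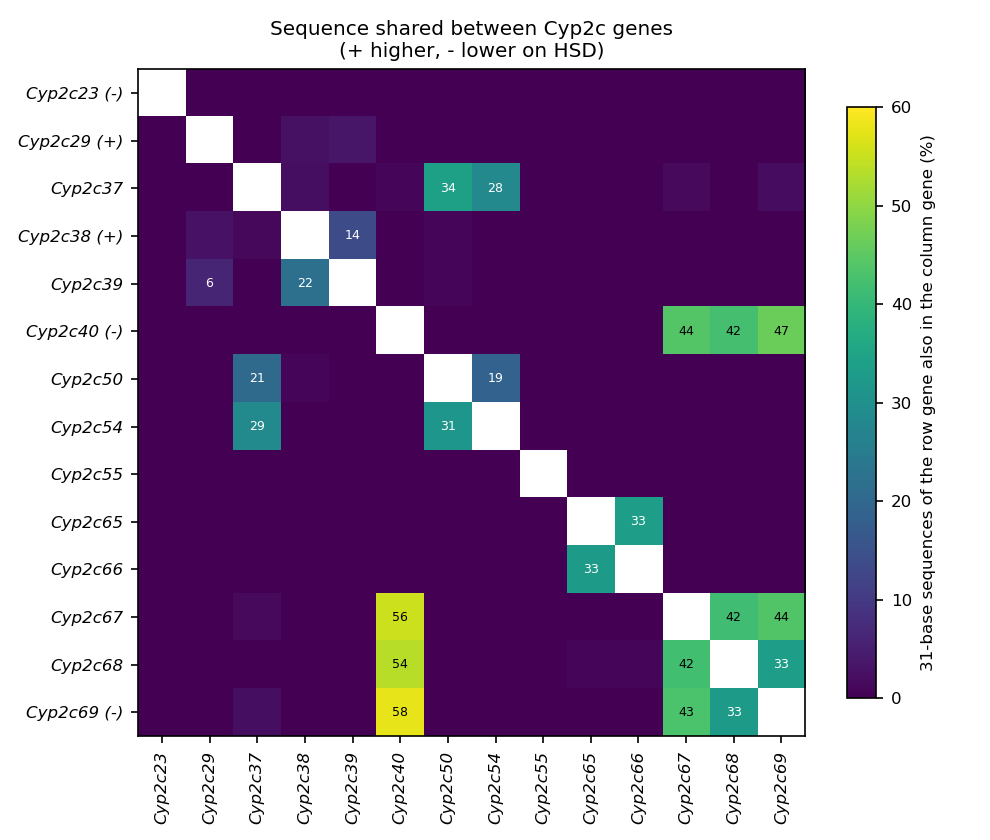
Share of the 31-base transcript sequences of each Cyp2c gene (row) that also occur in another (column), in percent, with shares of at least 5 printed. Plus and minus signs mark genes higher and lower on HSD. Cyp2c40, Cyp2c67, Cyp2c68 and Cyp2c69 form 1 block, Cyp2c37, Cyp2c50 and Cyp2c54 another, and Cyp2c29 and Cyp2c23 share little with any.

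Cyp2c23, whose rat relative is known as an arachidonic acid epoxygenase of the kidney, shares no 31-base sequence with another gene. It was at 186, 353, 273, 306 and 272 CPM in Chow 1 to 5 and at 203, 189, 142 and 165 CPM in HSD 1 to 4. Chow 1 was below HSD 1 and HSD 2, so the diets overlapped, and the other chow livers were above all HSD livers. HSD differed from chow by a log2 fold change of -0.67 ± 0.17 (SE), adjusted p = 0.0356 by edgeR, and 16 of 23 alternatives did not keep the call. Taken over the subfamily, Cyp2c had 14 members, 12 tested, 2 higher and 3 lower. Its sum was 2815 ± 497 CPM in chow and 3885 ± 273 CPM in HSD with no overlap, and without Cyp2c29 the remaining tested members had values on both sides of 0. The block Cyp2c37, Cyp2c50 and Cyp2c54 summed to 900.4 ± 207.7 CPM in chow and 865 ± 116.6 CPM in HSD, with overlap. Cyp2c55, singled out after its values were seen, was at 4.42 ± 2.75 CPM in chow and 10.5 ± 4.43 CPM in HSD, with an adjusted p of 0.0878 by edgeR and 0.0231 by DESeq2.

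In the Cyp1 family the abundant liver gene was lower on HSD. Cyp1a2, an AHR target that oxidises caffeine and aromatic amines, was at 758, 775, 834, 1001 and 974 CPM in Chow 1 to 5 and at 518, 476, 485 and 623 CPM in HSD 1 to 4. All HSD livers were below all chow livers. For this gene the log2 fold change was -0.72 ± 0.13 (SE), adjusted p = 0.00714 by edgeR. In TPM the diets overlapped, HSD 4 at 468 TPM being above Chow 1 at 449.7 TPM, and the call was lost (adjusted p of 0.0528 to 0.0943 by limma). Cyp1a1, which shares the AHR-dependent control and lies beside it on chromosome 9, was scarce at 1.02 ± 0.39 CPM in chow and 1.95 ± 1.18 CPM in HSD and did not pass (adjusted p = 0.185 by edgeR). Cyp1b1, mainly an enzyme of tissues other than liver, was at 0.543 ± 0.101 and 0.881 ± 0.149 CPM, with an adjusted p of 0.206 by edgeR.

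Cyp2a12 and Cyp2f2 also fell, both with little spread between the chow mice. Cyp2a12, a steroid and bile acid hydroxylase, was at 576, 562, 589, 589 and 572 CPM in Chow 1 to 5, a coefficient of variation of 2.02%, and at 396, 389, 413 and 394 CPM in HSD 1 to 4. The gap between the diets was far wider than the range within either. On the log2 scale the change was -0.54 ± 0.08 (SE), adjusted p = 0.00418 by edgeR. Of the 31-base sequences of its closest relative Cyp2a22, 34.6% also occur in Cyp2a12. Cyp2a22 was scarce (at most 0.900 CPM), so the sum of both was also apart, at 578 ± 11.6 CPM in chow and 399 ± 10.6 CPM in HSD. Cyp2f2, the mouse enzyme that activates naphthalene, was at 1597, 1598, 1664, 1613 and 1563 CPM in Chow 1 to 5 and at 1282, 935, 912 and 1015 CPM in HSD 1 to 4. Again no HSD liver reached the chow range, but the HSD livers spread more widely, with a coefficient of variation of 16.4% against 2.27% in chow, and in TPM HSD 1 (1033) was above Chow 1 (988). Its log2 fold change was -0.63 ± 0.12 (SE), adjusted p = 0.00892 by edgeR.

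Cyp2a5, a coumarin hydroxylase described here after its values were seen, varied more within chow than between diets. It was at 199, 526, 179, 617 and 535 CPM in Chow 1 to 5 and at 152, 286, 253 and 302 CPM in HSD 1 to 4. Chow 1 and Chow 3 lay within the HSD range and the other chow livers above it, and these are the chow livers with low Dbp. With all livers edgeR gave a log2 fold change of -0.73 and an adjusted p of 0.244. The gene passed under 1 of 23 alternatives, without Chow 1 and Chow 3 (-1.18, adjusted p = 0.00342 by edgeR). When log2 Arntl minus log2 Dbp entered the fit as a covariate, the change was -0.13 (adjusted p = 0.554 by edgeR). Between diets Arntl and Dbp themselves had log2 fold changes of 0.57 and -0.48 (adjusted p = 0.552 and 0.536 by edgeR). Chow 1 is also the liver with the acute phase transcripts, and the cause of the spread of Cyp2a5 was not tested. Cyp2a4, with 55.9% of its 31-base sequences in Cyp2a5, was at 0 to 4.44 CPM in chow.

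The subfamily Cyp2d, with 8 members all tested, had 0 past the edgeR test, 3 with an unadjusted p under 0.05 (all lower) and 0 by DESeq2. Its summed level was 3721 ± 448 CPM in chow and 3217 ± 190 CPM in HSD, overlapping, and 7 of 8 log2 fold changes by edgeR were below 0. In TPM the diets were nearly equal, the subfamily summing to 2972 ± 401 in chow and 2915 ± 140 in HSD. Cyp2d9 led it at 1500, 1188, 1995, 1562 and 1959 CPM in Chow 1 to 5 and 1273, 1373, 1471 and 1282 CPM in HSD 1 to 4. Its log2 fold change was -0.28 ± 0.15 (SE), adjusted p = 0.281 by edgeR. Of 12 other male-biased liver genes examined, 3 (25%, against 3.23% of all genes) were lower on HSD by edgeR and 6 by DESeq2. In this list 10 had a log2 fold change below 0. Of 3 female-biased genes tested, 1 was higher by edgeR (3.44% of all genes were), 0 were lower and 2 had a log2 fold change below 0. Both lists were chosen with earlier results of these data known, so their shares are not independent of these data. Cyp2d12, the member nearest to Cyp2d9 by sequence, was at 2.34 ± 0.66 CPM in chow and 1.30 ± 0.57 CPM in HSD, with an adjusted p of 0.135 by edgeR.

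Cyp2e1 was at 4947, 4724, 5844, 5637 and 6057 CPM in Chow 1 to 5 and at 4155, 6192, 4332 and 4401 CPM in HSD 1 to 4. HSD 2 was the highest of all 9 livers, and the other HSD livers were below every chow liver. The difference was a log2 fold change of -0.19 ± 0.14 (SE), adjusted p = 0.465 by edgeR, and without HSD 2 it was -0.34 with an adjusted p of 0.152.

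In Cyp3a, with 7 members and 4 tested, 1 was lower. Cyp3a11, the main PXR-driven P450 of mouse liver, was at 395, 762, 769, 730 and 635 CPM in Chow 1 to 5 and at 589, 555, 654 and 501 CPM in HSD 1 to 4. Chow 1, the liver with the acute phase transcripts, was the lowest of all 9. edgeR gave a log2 fold change of -0.20 ± 0.18 (SE), adjusted p = 0.549 by edgeR, and without Chow 1 it was -0.34 with an adjusted p of 0.0709. Cyp3a59 was at 8.80, 10.3, 6.01, 9.11 and 8.73 CPM in Chow 1 to 5 and at 2.45, 3.93, 6.96 and 3.09 CPM in HSD 1 to 4. HSD 3 was above Chow 3, and the other HSD livers were below all chow livers. Its log2 fold change was -1.09 ± 0.27 (SE), adjusted p = 0.0338 by edgeR, a call that 12 of 23 alternatives did not keep. Cyp3a59 shares 43.5% of its 31-base sequences with the more abundant Cyp3a25 (230 ± 14.9 CPM in chow and 192 ± 19.6 CPM in HSD, adjusted p = 0.115 by edgeR). The sum of both was 239 ± 15.6 CPM in chow and 196 ± 20.8 CPM in HSD, where Chow 1 (220.1) and HSD 2 (219.6) nearly met, and in TPM the sums overlapped (133 to 179 in chow and 144 to 166 in HSD). Cyp3a13, singled out after its values were seen, was at 154 ± 55.9 and 103 ± 8.59 CPM, with an adjusted p of 0.114 by edgeR and 0.0429 by DESeq2.

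Cyp2j5, an epoxygenase of liver and kidney, was at 519, 540, 540, 570 and 549 CPM in Chow 1 to 5 and at 503, 468, 497 and 505 CPM in HSD 1 to 4. The groups did not overlap, but the difference was small: the log2 fold change was -0.14 ± 0.08 (SE), adjusted p = 0.343 by edgeR, and it changed sign in TPM (296 ± 33.6 in chow and 300 ± 15.1 in HSD). Its neighbour Cyp2j6 was at 86.6 ± 11.5 and 73.0 ± 8.598 CPM and did not pass (adjusted p = 0.227 by edgeR). The Cyp2j sum, over 8 members of which 3 were tested, was 633 ± 27.2 CPM in chow and 570 ± 18.2 CPM in HSD without overlap, and in TPM it was 327 ± 38.8 and 331 ± 15.5 with overlap.

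Of the remaining single-gene subfamilies, Cyp2t4 was not tested and the others did not pass. Cyp2r1, the vitamin D 25-hydroxylase, was at 10.9 ± 0.865 CPM in chow and 12.5 ± 2.05 CPM in HSD (adjusted p = 0.362 by edgeR). Cyp2u1, a fatty acid hydroxylase, was at 19.2 ± 3.19 and 19.9 ± 4.33 CPM (adjusted p = 0.894 by edgeR). Cyp2g1, known from the olfactory mucosa, and Cyp2s1 were scarce, at 0.137 to 1.87 and 0.225 to 0.819 CPM, with adjusted p of 0.267 and 0.597 by edgeR.

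The genes that serve or control these enzymes were read from lists of redox partners, regulators and other targets of the same receptors. These lists too were chosen with earlier results of these data known. Of 5 redox partners 2 (40%, against 3.23% of all genes tested) were lower and 0 higher (3.44% of all genes): cytochrome b5 (Cyb5a) at 601 ± 36.4 CPM in chow and 458 ± 50.4 CPM in HSD (log2 fold change -0.39 ± 0.10 SE, adjusted p = 0.0406 by edgeR), and the heme-binding membrane protein Pgrmc1 at 780 ± 52.5 and 597 ± 29.9 CPM (-0.39 ± 0.09 SE, adjusted p = 0.0324 by edgeR). Cyb5b and Cyb5r3 went the other way without passing. Cyb5b was at 438 ± 34.7 and 577 ± 87.1 CPM, with overlap (0.40 ± 0.12 SE, adjusted p = 0.0625 by edgeR). The log2 fold change of Cyb5r3 was 0.24 ± 0.13 (SE), adjusted p = 0.288 by edgeR. Por, the reductase that most microsomal P450 enzymes need, was at 268, 512, 267, 371 and 468 CPM in Chow 1 to 5 and at 208.2, 351, 212 and 266 CPM in HSD 1 to 4. Its diets overlapped, the lower chow values being those of Chow 1 and Chow 3, and its log2 fold change was -0.54 ± 0.22 (SE), adjusted p = 0.163 by edgeR.

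Of 12 regulators tested 1 (8.33%, against 3.23% of all genes) was lower and 0 higher. PXR (Nr1i2) was at 57.0, 69.0, 57.9, 58.9 and 56.5 CPM in Chow 1 to 5 and at 44.3, 54.4, 45.0 and 43.9 CPM in HSD 1 to 4. The groups did not overlap, HSD 2 coming nearest, and the log2 fold change was -0.35 ± 0.10 (SE), adjusted p = 0.0472 by edgeR. CAR (Nr1i3) was at 79.3, 52.7, 99.5, 151 and 81.6 CPM in Chow 1 to 5 and at 53.0, 75.5, 45.2 and 37.7 CPM in HSD 1 to 4, with overlap, a log2 fold change of -0.81 ± 0.27 (SE) and an adjusted p of 0.0952 by edgeR. AHR (Ahr) was at 22.4 ± 7.02 CPM in chow and 32.9 ± 3.51 CPM in HSD, with overlap and an adjusted p of 0.109 by edgeR.

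**Figure D5:**
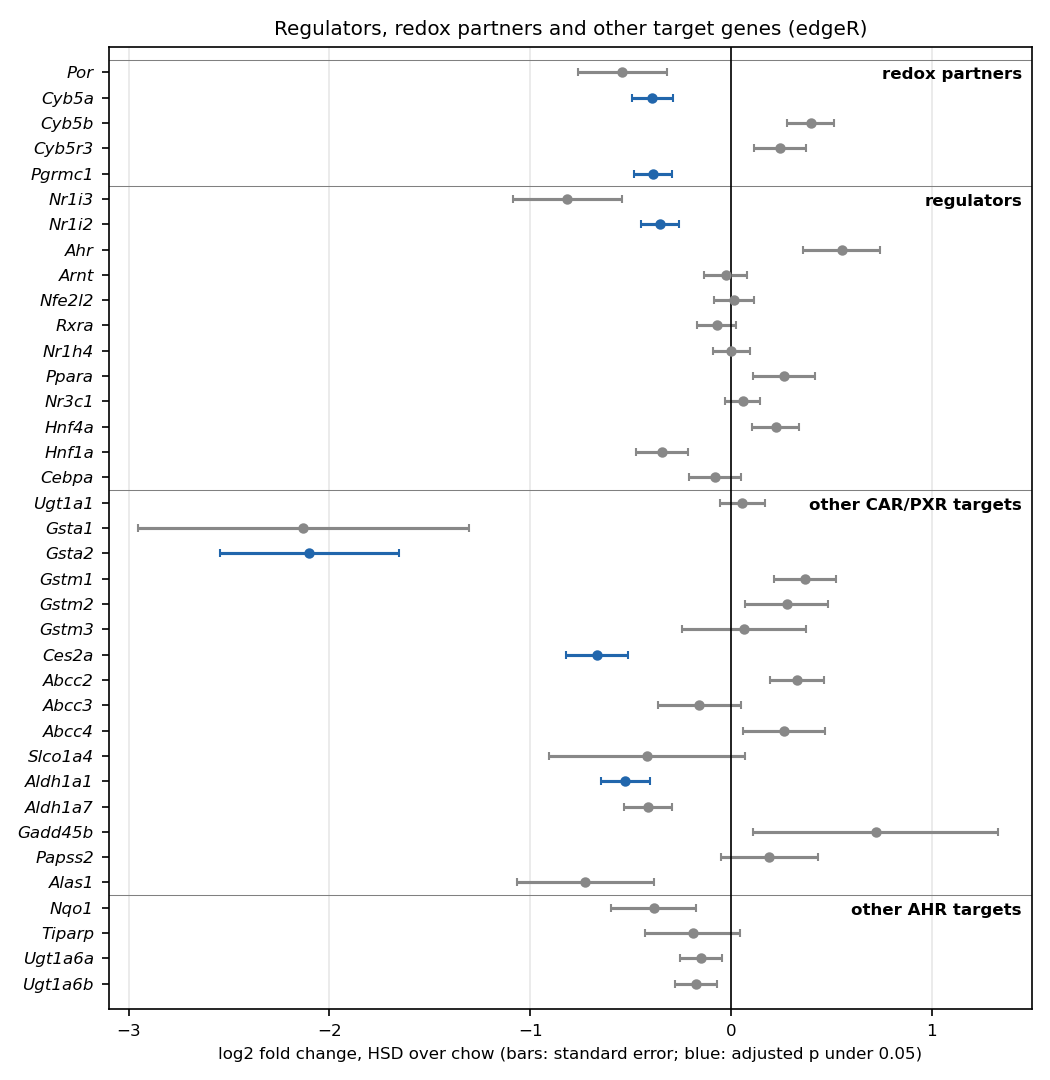
The log2 fold change of HSD over chow, with standard errors from edgeR, for the tested genes of 4 lists: redox partners (5), regulators (12), other CAR or PXR targets (16) and other AHR targets (4). Blue points are the 6 genes lower at an adjusted p under 0.05, and 0 were higher.

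Of 16 other genes known to answer CAR or PXR, 3 (18.8%, against 3.23% of all genes) were lower on HSD and 0 higher, with a median log2 fold change of -0.05. Gsta2, a glutathione transferase, was at 15.3 ± 9.64 CPM in chow and 3.55 ± 0.71 CPM in HSD (log2 fold change -2.10 ± 0.45 SE, adjusted p = 0.0182 by edgeR), with no overlap, although Chow 1 at 4.33 CPM was close to HSD 1 at 4.29 CPM. The carboxylesterase Ces2a (291 ± 61.3 and 183 ± 17.6 CPM, log2 fold change -0.67, adjusted p = 0.0252 by edgeR) and the aldehyde dehydrogenase Aldh1a1 (703 ± 99.9 and 489 ± 44.8 CPM, log2 fold change -0.52, adjusted p = 0.0280 by edgeR) were the others. Of 4 other AHR targets tested 0 passed by edgeR or DESeq2 and 0 had an unadjusted p under 0.05, with a median log2 fold change of -0.18. Over the other 3 lists, where edgeR called 0 genes higher, 4 had an unadjusted p under 0.05 in that direction and DESeq2 called 1, a redox partner. Over all 4 lists, 6 genes were lower with all livers, 10 without Chow 1 and Chow 3, and 0 without HSD 1 or without HSD 4.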

How the data were processed

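The authors made poly-A selected libraries of 9 mouse livers, sequenced paired reads and ran kallisto on GRCm38 (version and transcript release not given in the sources used here). Estimated counts by gene were deposited, which need not be whole (34.1% of values above 0 are, of which 99.1% are even, within 1e-06), and TPM per gene, which the authors' kallisto run scales to transcript length. Of columns of other samples there were 0. The p-values measure the spread between mice.

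Counts were rounded and tested with edgeR 4.0.16 (quasi-likelihood, R 4.3.3) after filterByExpr (minimum count 10, total 15) and trimmed mean of M-values normalization, with diet as the single factor and Benjamini-Hochberg adjustment over 12091 genes at 0.05. This replaces the DESeq2 test that the study's methods name for its cohorts. Alternatives were DESeq2 1.42.0, limma 3.58.1 on log2(TPM + pseudocount) and with voom, other size factors, no filter, halved counts, a replicate block, the label series, a clock covariate and leaving out livers. On simulated counts edgeR recovered 74 of 100 genes changed by 1 and 95 of 100 changed by 2 on the log2 scale. It also made 17 false calls among the unchanged genes. Smaller changes, such as that called for Cyp1a2, were not simulated.

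Positions came from GENCODE vM21 (GRCm38), which matched all 55 members. Shared sequence is the share of 31-base sequences of a gene's transcripts found in another gene's transcripts, with no protein compared. Promoters came from RefSeq (GRCm38.p6). Named genes were every member past the test, the most abundant of each subfamily, every member whose diets did not overlap, their closest partner in sequence, and pathway genes past the test with Nr1i3, Nr1i2, Ahr and Por. Cyp2b9, Cyp2c37, Cyp2c50, Cyp2c54, Cyp2c55, Cyp2c65, Cyp2c67, Cyp2c68, Cyp2d22, Cyp2d40, Cyp2a4, Cyp2a5, Cyp3a13, Cyp3a16, Cyb5b, Cyb5r3 and the members at 0 were added after their values were seen. The members and the gene lists were chosen with earlier results of these data known. Leaving out Chow 1 and Chow 3 was chosen on their transcripts of the acute phase and clock.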

Additional observations from a re-analysis of the deposited data

Results flagged for a closer look

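A screen for single livers covered each tested gene that passed, was the most abundant of its subfamily or had diets without overlap. It also covered each subfamily sum with several tested members. Other described genes, among them Cyp2a5 and Cyp2c55, were not screened. For each gene or sum covered, the highest and lowest liver of each diet were compared with the rest of that diet. Of 50 such groups 3 (6%) held a liver far from the others, and chance alone flags about 1 group in 20. Cyp2b10 in HSD 3, at 40.3 CPM against 16.8 to 18.9 in the other HSD livers, was 1.18 above their mean on the log2 scale. Cyp2e1 in HSD 2, at 6192 CPM against 4155 to 4401, was 0.528 above on that scale. Cyp3a11 in Chow 1, at 395 CPM against 635 to 769, was -0.871 from the other chow livers, and Chow 1 is also the liver with the acute phase transcripts.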

How the results depend on the processing

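Cyp2b10 passed under all 23 alternatives tried and Cyp2c29 and Cyp2c69 under 22, while Cyp2c23 passed under 7, Cyp3a59 under 11 and Cyp2c38 under 12. Of 3 members higher and 7 lower, 1 and 0 were left in label series 1 alone, which has 2 HSD livers and so fewer samples. The lower members were 4 with limma on log2(TPM + 1), 4 on log2(TPM + 0.1), 1 on log2(TPM + 1) with no filter on low values, and 4 at an adjusted p under 0.01. With each liver left out in turn, 2 to 4 members were higher and 4 to 8 lower, the lowest count of lower members without HSD 1 and the highest without Chow 1.

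Among all genes, the main counts were 416 higher and 391 lower. They were 632 and 663 by DESeq2, 15 and 19 in label series 1 alone, and 97 and 112 at an adjusted p under 0.01. With library totals 254 genes were lower. With limma on log2(TPM + 1) or log2(TPM + 0.1) 101 were lower, and without the filter 243 were higher and 51 lower. Leaving out single livers gave 153 to 475 higher and 149 to 493 lower, the low counts being without HSD 1 and the high ones without Chow 1. The count of higher genes was 267 without Chow 5, 254 without HSD 3 and 158 without HSD 4, and that of lower genes 256 without HSD 2, 224 without HSD 3 and 171 without HSD 4.

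The redox partners, regulators and other targets had 0 genes higher and 6 lower. Higher were 1 by DESeq2, 1 with library totals, 2 with limma on log2(TPM + 1), 1 on log2(TPM + 0.1), 2 with the Arntl minus Dbp difference as a covariate and 1 without Chow 1 and Chow 3. Lower were 1 with library totals, 0 in each TPM fit, 2 with label series as a covariate, 0 in label series 1 alone, 10 without Chow 1 and Chow 3 and 0 at an adjusted p under 0.01. Leaving out single livers gave 0 to 1 higher and 0 to 7 lower, with 0 lower without HSD 1 or HSD 4, 1 without HSD 3, 2 without Chow 4 or Chow 5 and 3 without Chow 3.

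Both diets carry replicate numbers 1 to 4, and same-numbered livers showed little shared deviation (correlations of 0.0457, 0.0661, -0.0609 and 0.0447). Numbers 2 and 4 matched best with their own number. The sources used here describe no pairing, and so few correlations cannot exclude one. With a replicate block 4 members were lower and 6 of the 10 calls remained, with 220 genes higher and 205 lower among all genes and 1 lower in the pathway lists. Under the block Cyp2u1 had a log2 fold change of -0.00467.

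Under some alternative the sign turned for 10 of the 41 tested members, 0 of them past the test. Cyp2j5 was at 0.0275 on log2(TPM + 1), with or without the filter, and at 0.0276 on log2(TPM + 0.1), and Cyp3a11 at 0.00587 and 0.00608. Cyp2u1 was at -0.00598 in label series 1 alone, at -0.0468 with the Arntl minus Dbp covariate and, leaving out single livers, between -0.0800 and 0.165. The cause of these differences was not tested. Depth limits the members under about 1 CPM, where a liver holds few counts. Copies that share sequence are less certain one by one than in sum: 24 of the 55 members, 4 of them past the test, share over 25% of their 31-base sequences with other genes.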

Other observations

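The liver with high acute phase transcripts, Chow 1, was low for many P450 genes. It held the lowest chow level of 18 of the 41 tested members and the highest of 3, with a median log2 deviation of -0.27 from the other chow livers. The same shares over all genes were not counted, so this is not shown to be particular to P450 genes. The Y-linked genes were also low in Chow 1. Their mean log2 level, relative to the 9 livers, was -0.469 there and -0.0655 to 0.116 in the other chow livers. The Kupffer cell markers were high in Chow 1, at 0.968 on that scale. The highest chow levels of Cyp3a13 and Cyp2d40 were also in this liver: Cyp3a13 was at 246 CPM against 109 to 167 in the other chow livers, and Cyp2d40 at 177 CPM against 55.2 to 90.2. A single mouse cannot be tested.

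P450 genes left out by the rule gave further context. Cyp2c70 was at a mean of 552 TPM in chow and 401 TPM in HSD. Cyp3a41a and Cyp3a41b, which are known as female-specific genes of mouse liver, did not exceed 0.132 and 0.00502 TPM.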
